A study of Mus musculus with 88 samples.

Results

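The transcripts of heart and soleus muscle were compared in 5 wild type (WT) mice, each of which gave 1 library of either tissue. The 10 libraries were those whose titles name WT heart or WT soleus muscle, paired by the mouse number, of 88 libraries in the series, and every gene of the count table was used. The study sequenced polyadenylated RNA in bulk from 9 tissues of WT mice and of mice with a knockout (KO) of Cdh15, the gene of M-cadherin, an adhesion protein of skeletal muscle. The 5 WT mice were male C57BL/6NTac, 65 to 83 days old and fasted for 18 h. Heart and soleus of 5 Cdh15 KO mice, also male, of the same strain, 65 to 85 days old and fasted for 18 h, gave 10 further libraries and served as a repeat in other animals. The labels name the knocked-out gene but not the allele, and do not say which chambers of the heart were taken. Mice are named by the number in their labels.

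Heart and skeletal muscle are both striated, but they build their contractile filaments from different members of the same gene families. In the mouse, cardiomyocytes use the alpha myosin heavy chain and cardiac troponins, are joined end to end by intercalated discs, take calcium from outside the cell to trigger its release through ryanodine receptor 2, and burn mainly fatty acids. Skeletal fibres are multinucleate cells driven by motor nerves, release calcium through ryanodine receptor 1 and fall into slow fibres, which share several proteins with the heart, and fast fibres, which rely more on glycogen. Soleus is known as the calf muscle richest in slow fibres.

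Some of the myosin heavy chain genes that set heart and soleus apart also carry a microRNA inside the gene. The mature sequences are shown because the host genes Myh6, Myh7 and Myh7b differed between heart and soleus, Myh6 as a leading gene. They come from RefSeq on GRCm38.p6, written 5′ to 3′ with the seed (bases 2 to 8) in capitals.
miR-208a-3p (in Myh6, chr14:54949072-54949093, minus strand): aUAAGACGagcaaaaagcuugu
miR-208b-3p (in Myh7, chr14:54975710-54975731, minus strand): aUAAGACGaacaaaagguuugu
miR-499-5p (in Myh7b, chr2:155622893-155622913, plus strand): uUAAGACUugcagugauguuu
The miR-208 pair shares the seed UAAGACG and differs at 3 bases elsewhere, while miR-499-5p has the seed UAAGACU. The libraries measure the host mRNA and not the mature microRNA. Myh6 averaged 4321 ± 127 RPKM (reads per kilobase of exon, scaled to library size) in WT heart and 1.55 ± 0.560 RPKM in WT soleus (SD, n = 5 each). Myh7 averaged 79.2 ± 35.0 RPKM in WT heart and 458 ± 151 RPKM in WT soleus. Myh7b averaged 9.42 ± 2.21 RPKM in WT heart and 2.52 ± 0.239 RPKM in WT soleus, so the host of miR-208b was the only 1 of the 3 with its higher level in soleus.

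The stretch of 250 bases before the RefSeq start is shown for 3 genes at the top of the comparison, Nppa and Mybpc3 for heart and Myh4 for soleus, because they can be read for sites of factors known from muscle. Capitals mark an E-box (CAGCTG, bound by the MyoD family), a MEF2 site or a CArG box (bound by serum response factor). AGATAA (bound by GATA factors) was searched too, all on both strands. Other forms of these sites were not searched, such as TGATAA, which stands in lower case in Nppa and Mybpc3.
Nppa (chr4:148000472-148000721, plus strand): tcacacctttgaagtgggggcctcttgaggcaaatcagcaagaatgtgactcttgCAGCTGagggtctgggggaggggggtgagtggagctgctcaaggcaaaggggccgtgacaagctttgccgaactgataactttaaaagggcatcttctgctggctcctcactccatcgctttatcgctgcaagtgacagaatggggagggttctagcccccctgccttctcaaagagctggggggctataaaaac
Mybpc3 (chr2:91117894-91118143, plus strand): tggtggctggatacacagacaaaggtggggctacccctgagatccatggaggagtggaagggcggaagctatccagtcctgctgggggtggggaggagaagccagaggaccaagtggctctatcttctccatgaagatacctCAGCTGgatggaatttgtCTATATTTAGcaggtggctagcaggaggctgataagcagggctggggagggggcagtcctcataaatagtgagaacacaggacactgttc
Myh4 (chr11:67237562-67237811, plus strand): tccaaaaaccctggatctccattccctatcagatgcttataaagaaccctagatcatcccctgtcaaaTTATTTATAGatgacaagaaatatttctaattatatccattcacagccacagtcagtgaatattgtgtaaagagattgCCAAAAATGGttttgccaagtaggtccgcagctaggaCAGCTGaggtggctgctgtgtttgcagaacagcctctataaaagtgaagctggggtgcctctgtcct
The E-box stands in these 3, the MEF2 match in Mybpc3 and Myh4, and the CArG box in Myh4. The promoter of Tnnc2, another leading soleus gene, held none of the motifs in the forms searched. The E-box as CAGCTG was in 3 of 14 promoters of the leading heart genes and in 4 of 9 of the leading soleus genes. Such a promoter was listed for 10140 of the 13449 genes tested, of which 11.8% held the E-box, 5.57% the GATA motif, 1.8% the MEF2 motif and 1.2% the CArG box. Among the genes at least 2-fold higher in heart, the E-box was in 13.4%, the GATA motif in 7.74%, the MEF2 motif in 1.55% and the CArG box in 1.55% of 1616 promoters. Among the genes at least 2-fold lower in heart, the E-box was in 15.4%, the GATA motif in 6.72%, the MEF2 motif in 3.49% and the CArG box in 2.01% of 1146 promoters. These shares are descriptions of letters in a window and were not tested.

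Total counts ranged from 17.3 M to 23.8 M in WT heart and from 15.1 M to 20.6 M in WT soleus, and from 13.6 M to 22.9 M in KO heart and from 17.4 M to 22.9 M in KO soleus. Mitochondrially encoded genes took 35.8 ± 0.63% of the counts in WT heart and 21.0 ± 1.13% in WT soleus (SD, n = 5 each). The sarcomere genes of the lists took 7.21 ± 0.086% in WT heart and 18.2 ± 1.38% in WT soleus, and those of oxidative phosphorylation 1.95 ± 0.041% and 1.20 ± 0.082%. Over WT and KO mice together, heart was higher than soleus in the mitochondrial share in 10 of 10 mice and lower in the sarcomere share in 10 of 10, each with an exact two-sided sign-flip p of 0.00195 (0.00195 adjusted over 4 quantities), the smallest that 10 mice allow. In 5 mice the smallest p is 0.0625. A gain of a few abundant transcripts in 1 tissue lowers the share of all others, which the scaling of the fits (trimmed mean of M-values, TMM) is meant to remove.

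Cdh15 itself, the gene targeted in the KO mice, had 2.59, 2.53, 4.28, 2.72 and 1.96 CPM (counts scaled to a common library size with TMM) in KO soleus, against 13.4, 18.8, 22.4, 21.9 and 17.6 CPM in WT soleus. KO heart held no read of it and WT heart 1 read in all. The 5 KO soleus libraries lay below all 5 WT soleus libraries.

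Heart and soleus differed in most of the genes measured. Of 13449 genes tested in WT mice, 5189 (38.6%) were higher and 4916 (36.6%) were lower in heart at an adjusted p under 0.05 (edgeR's quasi-likelihood test with the mouse as a block and Benjamini-Hochberg adjustment over all genes). With a difference of at least 2-fold asked as well, 2241 (16.7%) were higher and 1557 (11.6%) were lower. The median log2 fold change, heart over soleus, was 0.035 over all genes. A difference of more than 32-fold was called for 168 genes higher and 182 genes lower in heart. The 5 heart values lay wholly above or wholly below the 5 soleus values in 8487 genes. Without TMM scaling, on library totals alone, the WT median of all genes was 0.296 on the log2 scale instead, and 67.9% of the calls were higher in heart, against 51.4% with it. Changes below are relative to the TMM scale, and a fold change this close to 0 can change sign with the scaling. In bulk RNA, fewer cells of a type and less RNA per cell cannot be told apart. Counts of list members called in WT below are to be read against the 38.6% and 36.6% of all genes.

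Most of the genes furthest on the heart side had few or no reads in soleus, although Myh6 still averaged 10.2 CPM there. They encode cardiac hormones, cardiac members of the contractile apparatus, a desmosome protein and transcription factors of the heart. The 15 with the largest fold change among genes of at least 10 CPM were Nppa, Mybpc3, Dsp, Gata4, Myl7, Nppb, Tnni3k, Tnni3, Ryr2, Nkx2-5, Gpr22, Irx4, Myh6, Lrrc10 and Gja3, and 9 of them had no read in any WT soleus library. Below, the values of the 5 mice run in the same order in both tissues, 3793543, 3805657, 3817948, 3805673 and 3793553. Nppa (chromosome 4, 148000746 to 148002067 on mm10, 3 exons), the gene of atrial natriuretic peptide, had 335, 322, 400, 358 and 232 CPM in WT heart and 0 in all 5 WT soleus libraries. A count of 0 over the group allows up to 3 reads, and at that limit it was at least 9139-fold higher in heart (edgeR adjusted p = 2.07e-09). Mybpc3 (chromosome 2, 91118144 to 91136516, 32 exons), cardiac myosin binding protein C, had 2349, 2459, 2166, 2407 and 2407 CPM in WT heart and 0.071, 0, 0, 0.152 and 0.0518 CPM in WT soleus. Its 5 soleus libraries held 4 reads together, and the log2 fold change was 15.41 ± 0.23 (SE, edgeR adjusted p = 2.07e-12).

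Tnni3, cardiac troponin I, the inhibitory subunit of the thin filament, had 2086, 2258, 2140, 2192 and 2318 CPM in WT heart and 0.284, 0.275, 0.156, 0.38 and 0.207 CPM in WT soleus. Dsp, desmoplakin, which ties desmosomes to desmin, had 1250, 1257, 1209, 1403 and 1271 CPM in WT heart and 0.142, 0.0551, 0.104, 0 and 0.104 CPM in WT soleus. In both genes every heart library stood above every soleus library by more than 3 orders of magnitude. The atrial light chain Myl7 had 77.5, 65.5, 119, 79.9 and 45.7 CPM in WT heart and 0 in WT soleus, at least 2134-fold higher. Nppb, the gene of brain natriuretic peptide, had 86.8, 125, 32.6, 77.7 and 56.1 CPM in WT heart and 0 in WT soleus, at least 2149-fold higher. Myl7 and Nppb varied over 2-fold between the 5 hearts, whereas Gata4 stayed between 73.0 and 83.9 CPM and Nkx2-5 between 26.2 and 29.6 CPM. Tnni3k, a cardiac kinase that binds troponin I, was at least 1736-fold and Gpr22, an orphan receptor of heart and brain, at least 655-fold higher in heart. Gja3, a gap junction connexin, was at least 286-fold higher.

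The genes furthest on the soleus side were mostly components of fast skeletal fibres. The 15 with the most negative fold change were Myh4, Tnnc2, Tnnt3, Atp2a1, Ryr1, Ampd1, Myh1, Myf6, Mybpc1, Actn3, Nctc1, Pvalb, Mylpf, Hoxc10 and Myoz1, of which Myf6, Nctc1 and Hoxc10 had no read in WT heart. Myh4 (chromosome 11, 67237812 to 67260447, 40 exons), the heavy chain of the fastest type IIb fibres, had 0.0379, 0.044, 0.0499, 0 and 0 CPM in WT heart and 30464, 56983, 56056, 75307 and 65373 CPM in WT soleus. The 3 reads in heart against 4795940 in soleus gave a ratio, soleus over heart, of 2115700 (95% counting interval 723955 to 10259200), with an edgeR adjusted p of 9.96e-13. Tnnc2, fast troponin C, had 0.152, 0.044, 0.0499, 0.0533 and 0 CPM in WT heart and 3853, 4559, 4858, 5394 and 5070 CPM in WT soleus. Atp2a1, the calcium pump of fast fibres, had 1.1, 0.44, 1.1, 0.96 and 0.645 CPM in WT heart and 20067, 25270, 24558, 28664 and 23786 CPM in WT soleus. No heart library came near a soleus library in these 3 genes.

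Ryr1, the calcium release channel of skeletal muscle, had 0.266, 0.132, 0.349, 0.32 and 0.172 CPM in WT heart and 4914, 6083, 5422, 6642 and 5036 CPM in WT soleus. Ampd1, the muscle AMP deaminase, had 0, 0.044, 0.0499, 0.0533 and 0 CPM in WT heart and 420, 550, 662, 787 and 763 CPM in WT soleus, from 3 reads in heart and 53722 in soleus. Myf6 (MRF4), a myogenic factor of adult fibres, had 0 CPM in all 5 WT hearts and 86.2, 107, 81.9, 109 and 139 CPM in WT soleus, at least 3901-fold lower in heart. Hoxc10, a homeobox gene that marks hindlimb position, had 0 CPM in WT heart and 47, 60.1, 54.8, 65 and 54.3 CPM in WT soleus, at least 2079-fold lower in heart. All 30 genes were called in the same direction in KO mice, also with any 1 KO mouse left out. Of all genes at least 2-fold higher or lower in WT heart and tested in KO mice, 96.9% either way were called alike there. Fits that left out 1 WT mouse called the 30 as well, but they reuse libraries that chose these genes.

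**Figure D1:**
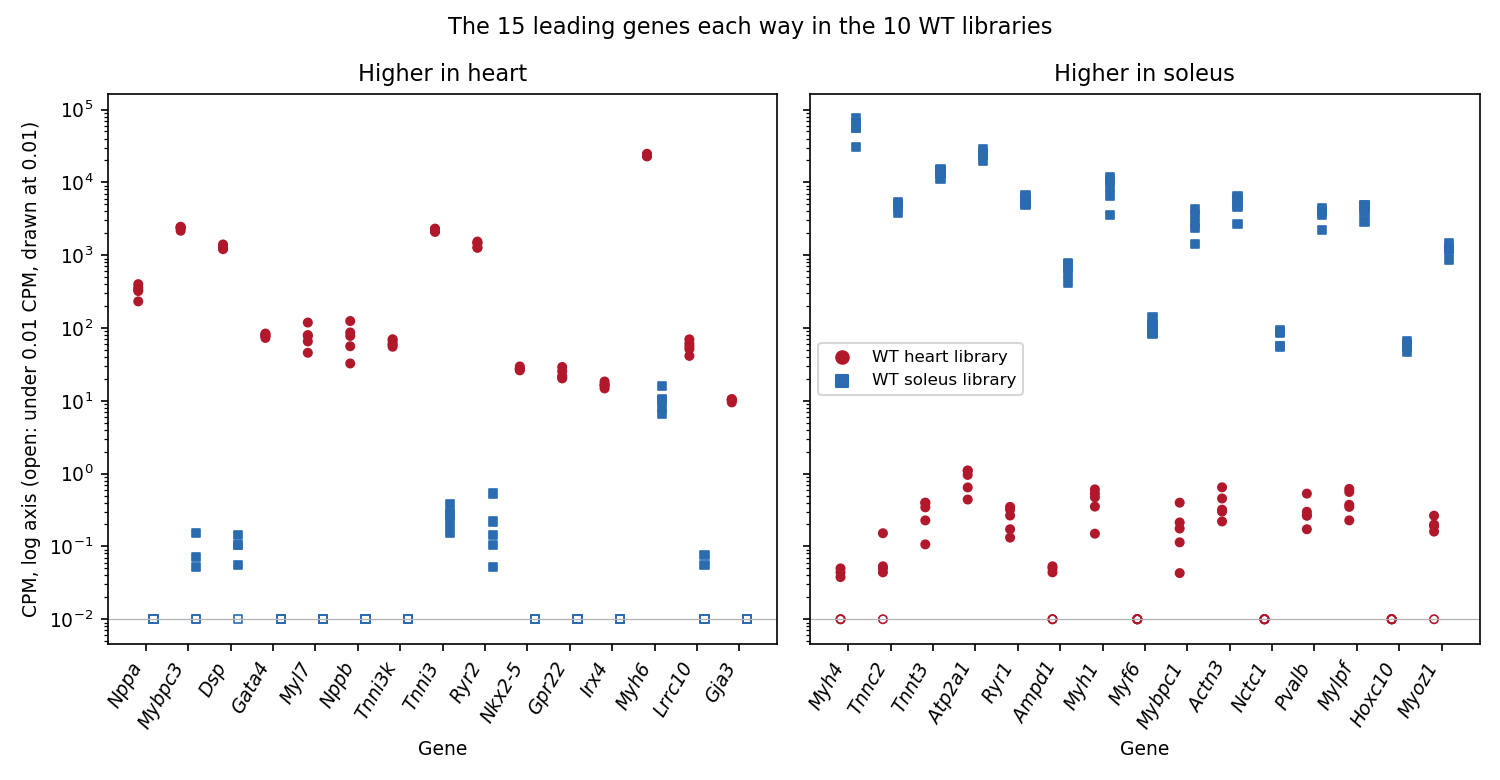
CPM (log axis) of the 15 leading genes each way in the WT libraries, with WT heart left of WT soleus for each gene, 1 point per library and open symbols for values under 0.01 CPM. For every gene shown the 5 heart and the 5 soleus points form groups that do not overlap. Myh6, for instance, lay at 22718 to 24726 CPM in heart and 6.53 to 16.1 CPM in soleus. The genes were chosen for large fold changes in these same libraries, and 8487 of all 13449 genes tested did not overlap either.

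The soleus libraries did not have the myosin profile of a slow muscle. Shares are given of the summed RPKM of Myh6, Myh7, Myh4, Myh1 and Myh2, the 5 adult sarcomeric heavy chains. In WT heart Myh6, alpha myosin, took 98.2 ± 0.81% and Myh7, the beta or slow myosin, 1.80 ± 0.80%. In WT soleus Myh4 took 76.0 ± 13.0%, Myh1 (type IIx) 12.1 ± 6.49%, Myh2 (type IIa) 7.47 ± 4.55% and Myh7 only 4.38 ± 2.21% (SD, n = 5 each). Myh4, the marker of type IIb fibres, led in all 5 WT soleus libraries, from 55.0% to 88.2%, which goes against a slow muscle. The muscle is therefore called by its label, soleus, and the source of its fast profile was not tested. Myh7 was nevertheless far above its level in other WT hindlimb muscles, with 458 ± 151 RPKM in soleus, 5.44 ± 4.43 in extensor digitorum longus, 16.8 in gastrocnemius and 4.80 in tibialis.

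Myh7 also varied within each tissue. It had 590, 624, 174, 499 and 305 CPM in WT heart and 4415, 3611, 2641, 2448 and 1983 CPM in WT soleus, 6.89-fold lower in heart. Mouse 3793543 had the soleus with the most Myh7 and the least Myh4. In KO mice the soleus of mouse 3805666 stood apart, with 92.9 CPM of Myh4 where the other 4 KO soleus libraries had 29436 to 45234 CPM, so results in KO mice that rest on it are given with and without this mouse. All 9 heavy chain genes of the list were called in WT, 2 higher in heart (Myh6 and Myh7b) and 7 lower, including the embryonic Myh3, the perinatal Myh8 and the extraocular Myh13. The heavy chain genes resemble each other, and the sources used here do not say how reads that match several of them were counted.

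**Figure D2:**
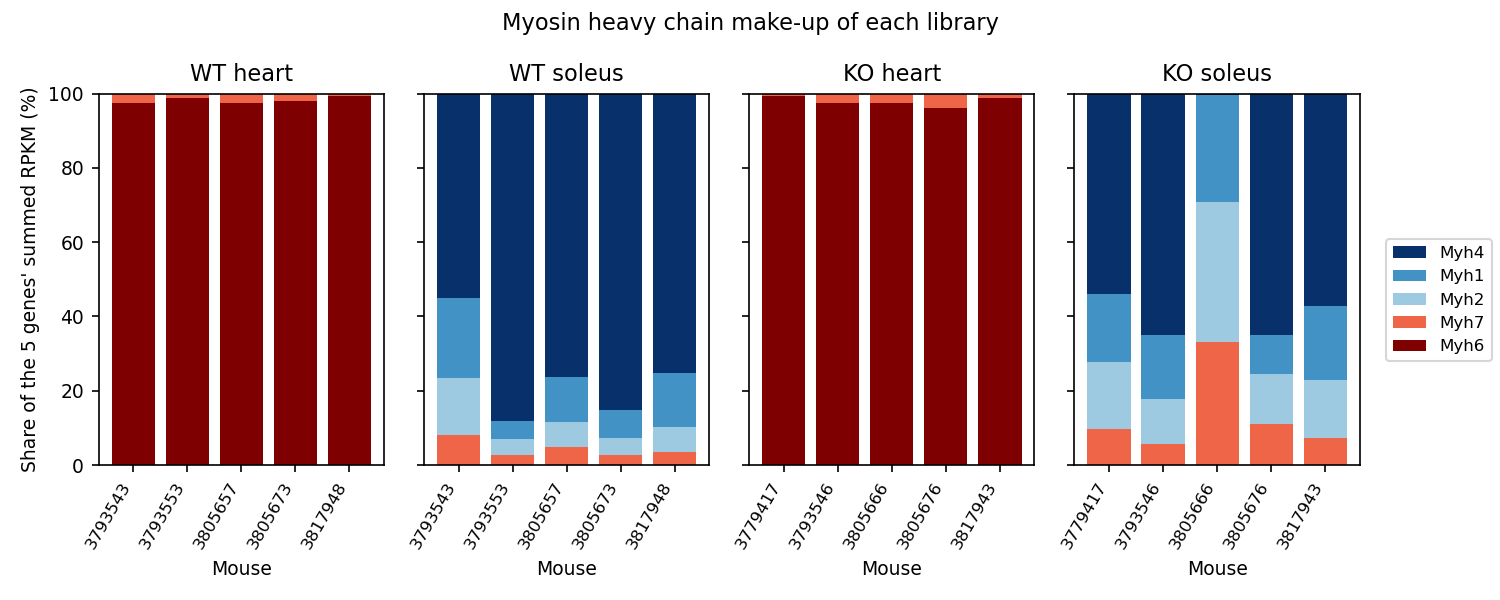
Share of each of 5 myosin heavy chain genes in their summed RPKM (%, stacked bars from 0 to 100), 1 bar per mouse, for heart and soleus of WT and of KO mice. Myh6 fills 97.4% to 99.3% of every WT heart bar, Myh4 fills 55.0% to 88.2% of the WT soleus bars, and Myh4 is nearly absent in the soleus bar of KO mouse 3805666.

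The switch of isoforms ran through most of the contractile apparatus. In 33 families of related genes, the member with the highest RPKM differed between WT heart and WT soleus in 21, and was the same in 12. The leading member was the same in all 5 mice of each tissue in 19 of the 21. KO mice also had a different leader in 21 families, but not always in all 5 mice. In KO soleus Actn3, Myoz1 and Jph1 led in 3 mice, and Myh4, Myl1, Mylpf and Ldha in 4. Mybpc1 led its family in all 5 KO soleus libraries, where Mybpc2 led in 4 of the WT soleus libraries. The share of 1 chosen member did not overlap between WT heart and WT soleus in 31 families, while leiomodin and the glucose transporters overlapped. The 31 include families with the same leader and a small shift, such as Cox6a2 at 95.7% to 97.0% in heart and 98.0% to 98.3% in soleus. For comparison, the CPM values of single genes did not overlap in 8487 of the 13449 genes tested.

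Among the troponins, the regulators of the thin filament, Tnni3 took 99.95 ± 0.010% of the troponin I transcripts per length in WT heart and 0.00408 ± 0.0013% in WT soleus. Fast Tnni2 took 0.0428 ± 0.0078% in heart and 96.2 ± 1.16% in soleus, with slow Tnni1 at 0.00812 ± 0.0032% and 3.82 ± 1.16%. Cardiac troponin T, Tnnt2, took 99.8 ± 0.013% in heart and 0.0208 ± 0.0081% in soleus, where fast Tnnt3 had 94.7 ± 1.97% and slow Tnnt1 5.25 ± 1.96%. The cardiac and slow troponin C, Tnnc1, made up 99.99 ± 0.0049% in heart and 8.81 ± 2.64% in soleus. Of the sarcomeric actins, Actc1 took 95.95 ± 0.58% in heart and 0.225 ± 0.088% in soleus, and Acta1 had the rest. Of 15 thin filament genes, 4 were higher in heart, 10 were lower and Actn2 was not called (log2 fold change -0.39, edgeR adjusted p = 0.0842), with a list median of -6.30.

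The regulatory light chain was Myl2 in heart (98.2 ± 0.70%) and mostly Mylpf in soleus (80.6 ± 6.06%), where Myl2 still took 19.4 ± 6.06%. The essential light chain Myl3 took 96.5 ± 1.15% in heart and 16.2 ± 6.43% in soleus. Myl2 and Myl3 belong to ventricle and slow fibres alike, and neither was absent from soleus. Of 9 myosin light chain genes and their kinases, 5 were higher and 4 lower in heart (median 1.56). Mybpc3 took 99.05 ± 0.13% of the myosin binding protein C transcripts in heart, and fast Mybpc2 with 59.9 ± 16.2% and slow Mybpc1 with 40.1 ± 16.2% shared those of soleus. Nebl, nebulette, took 97.9 ± 0.21% in heart and 0.0820 ± 0.030% in soleus, where nebulin (Neb), the ruler of skeletal thin filaments, had 99.9 ± 0.030%. Of the muscle myosin light chain kinases, Mylk3 stood at 99.9 ± 0.034% in heart and 0.0523 ± 0.023% in soleus. Of 25 genes of titin, binding proteins and the Z-disc, 5 were higher and 17 lower in heart (median -1.36), and Lmod2, Myom2 and Cryab were not called. Titin itself (Ttn) had 3922 CPM in heart and 12534 CPM in soleus, a log2 fold change of -1.67 ± 0.09.

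**Figure D3:**
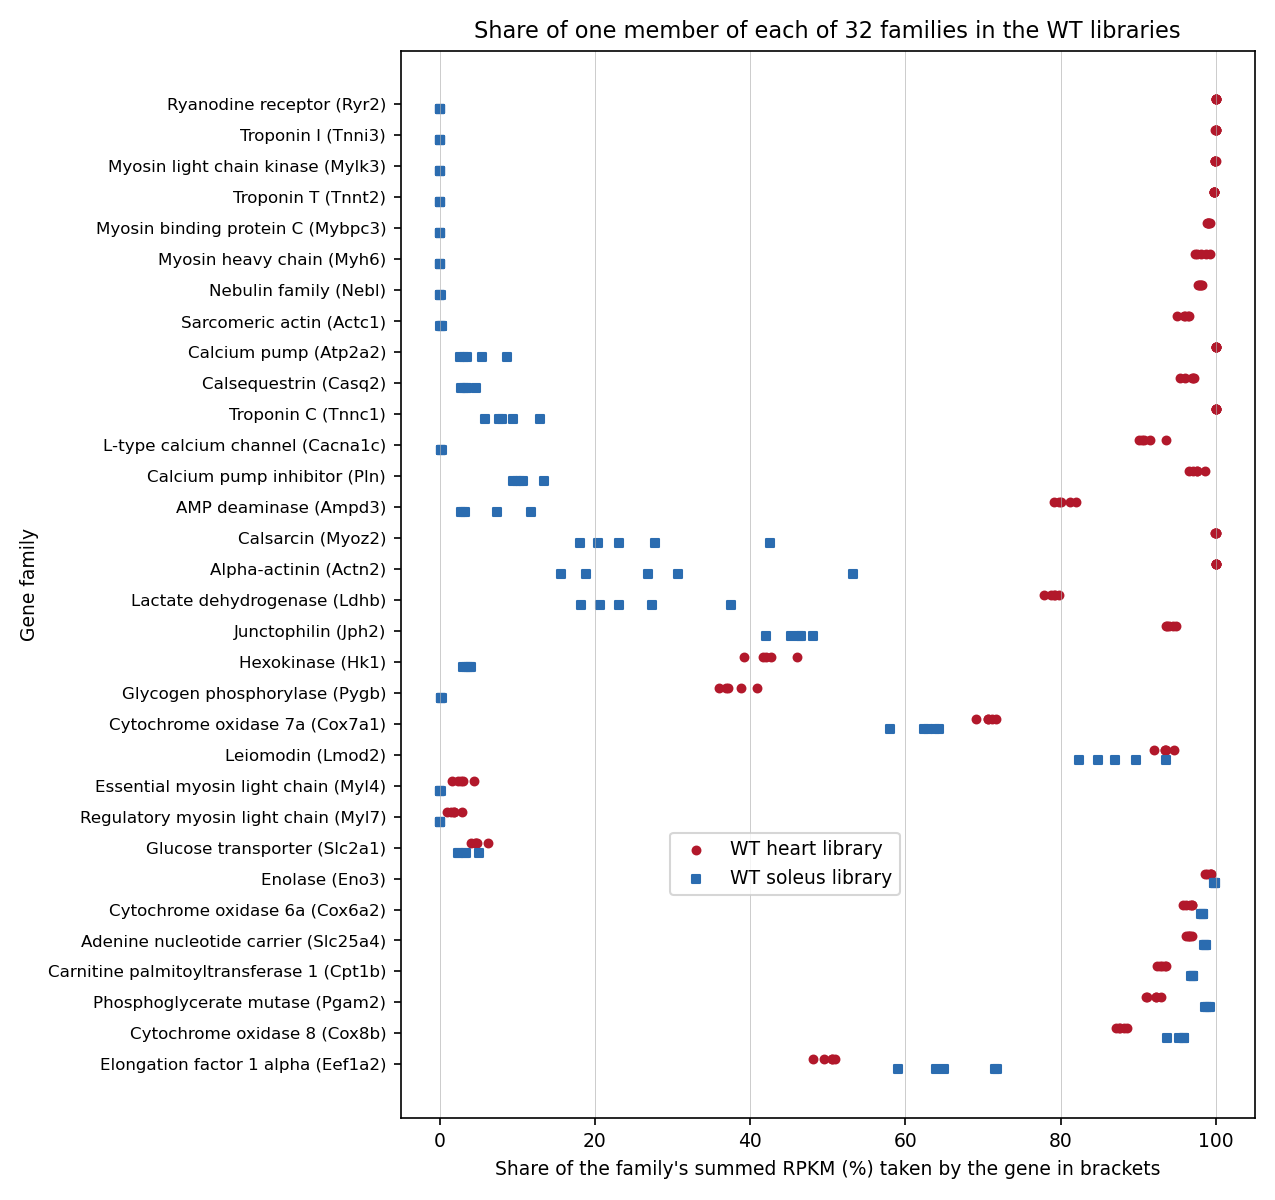
Share (%) of 1 member, named in brackets, in the summed RPKM of each of 32 of the 33 gene families, with 1 point per WT library, heart above soleus in each row. For Ryr2, Tnni3, Mylk3 and Tnnt2 the heart points lie at 99.78% or more and the soleus points under 0.1%, whereas the points of Lmod2 and Slc2a1 overlap.

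Calcium handling followed the same division. Cacna1c, the cardiac L-type channel, took 91.3 ± 1.40% in WT heart and 0.233 ± 0.022% in WT soleus against Cacna1s, the voltage sensor of skeletal muscle. Ryr2 took 99.98 ± 0.0065% in heart and 0.00319 ± 0.0025% in soleus against Ryr1. The calcium pump Atp2a2 (SERCA2) took 99.99 ± 0.0037% in heart and 4.69 ± 2.50% in soleus against Atp2a1, and the store protein Casq2 took 96.5 ± 0.77% in heart and 3.52 ± 0.73% in soleus against Casq1. Of 19 genes of excitation-contraction coupling, 4 were higher in heart (Ryr2, Cacna1c, Cacnb2 and Casq2), 13 were lower and Hrc and Jph2 were not called, with a median of -2.89.

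Phospholamban (Pln), which restrains SERCA2, had 3462, 3502, 3604, 3434 and 3944 CPM in WT heart and 3.55, 2.81, 2.44, 2.20 and 1.61 CPM in WT soleus, 1423-fold higher in heart. Atp2a2 had 9503, 8802, 9875, 9853 and 10778 CPM in WT heart and 2446, 1876, 1180, 1228 and 846 CPM in WT soleus, 6.44-fold higher. The pump thus differed far less between the tissues than its inhibitor. Slc8a1, the sodium-calcium exchanger, had 239 ± 19.9 CPM in WT heart and 30.2 ± 4.98 CPM in WT soleus, and Pvalb, the calcium buffer of fast fibres, a log2 fold change of -13.42 ± 0.26. Of 15 genes of calcium removal and buffering, 7 were higher and 8 lower in heart, against 38.6% and 36.6% of all genes.

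Of 26 surface ion channel genes, 15 were higher in heart, 8 were lower and 3 were not called (median 1.40). Among those higher, Kcnj5 and Kcnj3 encode subunits of the acetylcholine-gated potassium channel. Kcnj5 had 5662 reads in WT heart and 3 in WT soleus, a ratio of 1426 (95% counting interval 488 to 6915). Kcnj3 had a log2 fold change of 7.70 ± 0.17 and the leak channel Kcnk3 one of 9.41 ± 0.24. Those lower included Scn4a, the skeletal sodium channel (-3.90 ± 0.10), and the chloride channel Clcn1 (-3.97 ± 0.12). The sensors of ATP, Abcc9 and Kcnj11, were not called, at -0.15 ± 0.07 and 0.11 ± 0.08.

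Cell contact genes parted by the kind of junction. Of 22 genes of the intercalated disc and gap junctions, 15 were higher in heart, 5 were lower and Nexn and Coro6 were not called (median 1.19). Besides Dsp, the desmosomal Dsg2 (9.01 ± 0.11), Dsc2 (5.46 ± 0.18) and Pkp2 (5.01 ± 0.11) and the cadherin Cdh2 (6.10 ± 0.16) had the highest log2 fold changes. Gja1, connexin 43, had 293, 297, 308, 289 and 274 CPM in WT heart and 22, 22.4, 22.4, 18.2 and 20 CPM in WT soleus, 13.9-fold higher. Xirp2, a repeat protein that binds actin, was lower in heart at -2.29 ± 0.09, and Des, the intermediate filament desmin, at -0.89 ± 0.08. Of 14 neuromuscular junction genes tested, 8 were lower in heart, among them the acetylcholine receptor subunits Chrna1 (-8.77 ± 0.25) and Chrnd (1 read in heart and 264 in soleus) and the kinase Musk (-7.04 ± 0.14). The junction genes Agrn, Gramd1b, Etv5 and Dok7 were higher in heart, and Lrp4 and Colq were not called. The dystrophin complex, which both tissues use, had a list median of -0.008, with 6 of 21 genes higher, 9 lower and 6 not called. On library totals alone that median was 0.254. Among all genes 38.6% were higher and 36.6% lower.

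Receptors for the autonomic nerves also differed. Adrb1, the beta-1 adrenergic receptor, had 6.98, 7.05, 8.13, 5.49 and 7.40 CPM in WT heart and 0.142, 0, 0.104, 0 and 0.104 CPM in WT soleus. The 2 groups lay apart. The muscarinic receptor Chrm2 had 3123 reads in WT heart and 2 in WT soleus, a ratio of 1180 (95% counting interval 327 to 9743). Of 22 genes of autonomic receptors and cyclic nucleotides tested, 13 were higher and 9 lower in heart, against 38.6% and 36.6% of all genes. The share that was lower thus lay near that of all genes. The cyclase Adcy5 was higher (4.18) and the cyclase Adcy2 lower (-8.11).

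Regulators of lineage and position were among the most divided groups. Of 18 cardiac transcription factors tested, 16 were higher in heart, Smyd1 was lower and Tbx3 was not called (median 6.33), while Hand1 and Isl1 were too low to be tested. Gata4 was at least 2215-fold, Nkx2-5 at least 775-fold and Irx4 at least 464-fold higher in heart. Tbx5, needed in heart and forelimb, had 35.8, 28.5, 37.6, 31.9 and 31.2 CPM in WT heart and 0.071, 0, 0, 0 and 0.104 CPM in WT soleus. Of 22 skeletal muscle regulators tested, 20 were lower in heart (median -6.16), and Heyl and Msc were higher. Myod1 had 0 CPM in all 5 WT hearts and 3.34, 4.30, 6.02, 4.86 and 3.32 CPM in WT soleus, at least 163-fold lower in heart. Tbx15, a factor linked to fast fibres in mice, had 0.379 ± 0.0778 CPM in WT heart and 203 ± 21.0 CPM in WT soleus (SD, n = 5 each). All 15 limb position genes tested were lower in heart, and 8 of them, all Hox genes, had no read there. The list median was -8.24 as fitted and -6.12 with those 8 at the bound that 3 reads allow. Of 11 genes of cardiac hormones and their processing, 8 were higher in heart, among them Corin (9.17 ± 0.15), the protease that activates atrial natriuretic peptide, and Pam (3.44 ± 0.09), which amidates peptides. Npr2 and Npr3 were lower, with edgeR adjusted p-values of 0.0354 and 0.0441, and 0 or 1 of them was called when any 1 mouse was left out.

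Genes of fuel use differed by pathway. Of 26 genes of fatty acid uptake and oxidation tested, 22 were higher in heart (median 1.02). Lpl, the lipase that frees fatty acids from lipoproteins, had 5341, 4884, 4735, 4902 and 5551 CPM in WT heart and 2270, 1707, 1165, 1267 and 1039 CPM in WT soleus, 3.41-fold higher. Cd36, a fatty acid carrier of the cell surface, had 1926, 1878, 1601, 1914 and 1946 CPM in WT heart and 1125, 872, 769, 770 and 832 CPM in WT soleus, 2.12-fold higher. Cpt1b, the muscle enzyme that admits fatty acids to mitochondria, was not called, with 546 ± 34.0 CPM in WT heart and 490 ± 45.2 CPM in WT soleus (SD, n = 5 each, log2 fold change 0.16, edgeR adjusted p = 0.0797). Mlycd was the 1 gene of the list lower in heart (-0.19), a call lost without mouse 3793543, 3817948 or 3805673.

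Of 32 nuclear genes of oxidative phosphorylation, 26 were higher in heart, none was lower and 6 were not called. The sizes were small, with a list median of 0.47 and a largest log2 fold change of 1.02 (Atp5h). Of 18 genes of the tricarboxylic acid cycle, 12 were higher, Idh3a was lower and 5 were not called (median 0.26), the highest being Idh2 at 1.53 ± 0.11. Without mouse 3805657, 3817948, 3805673 or 3793553, 9 were higher and 8 not called, and without mouse 3793543, 14 and 3. Of 13 genes of ketone body and branched-chain amino acid use, 11 were higher and Bckdk was lower (median 0.70; 2 lower without mouse 3793553), among them Oxct1, the enzyme that lets tissues burn ketone bodies, 2.03-fold higher in heart.

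Glycolysis and glycogen genes lay on the soleus side, with 23 of 31 lower in heart, 7 higher and Eno1 not called (median -1.54). Pygm, muscle glycogen phosphorylase, had 823 ± 31.8 CPM in WT heart and 5793 ± 1189 CPM in WT soleus, and Pfkm, muscle phosphofructokinase, a log2 fold change of -2.22 ± 0.08. The 7 genes higher in heart were Pygb, Pfkl, Hk1, Pfkp, Pgam1, Pfkfb2 and Ldhb, several of them the isoforms of liver, brain or other tissues. Pygb, brain glycogen phosphorylase, had 677, 648, 601, 794 and 681 CPM in WT heart and 13.6 to 17.6 CPM in WT soleus, 45.7-fold higher. Lactate dehydrogenase was mostly Ldhb in heart (79.0 ± 0.71%) and Ldha in soleus (74.6 ± 7.61%). Of 14 creatine and purine nucleotide enzymes, 3 were higher in heart, 9 were lower and Ckmt2 and Slc6a8 were not called (median -0.95). Ckm, muscle creatine kinase, was 10.7-fold lower in heart, while the mitochondrial Ckmt2 was at -0.13 ± 0.09. Pdk4, which rises in fasting and blocks entry of pyruvate, had 2500 ± 372 CPM in WT heart and 5149 ± 850 CPM in WT soleus, and Ppargc1a, a driver of mitochondrial genes, 85.3 ± 8.17 CPM and 36.4 ± 2.55 CPM. Of 22 energy regulators, 8 were higher and 11 lower in heart, against 38.6% and 36.6% of all genes. Their median of -0.24 was 0.025 on library totals alone.

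**Figure D4:**
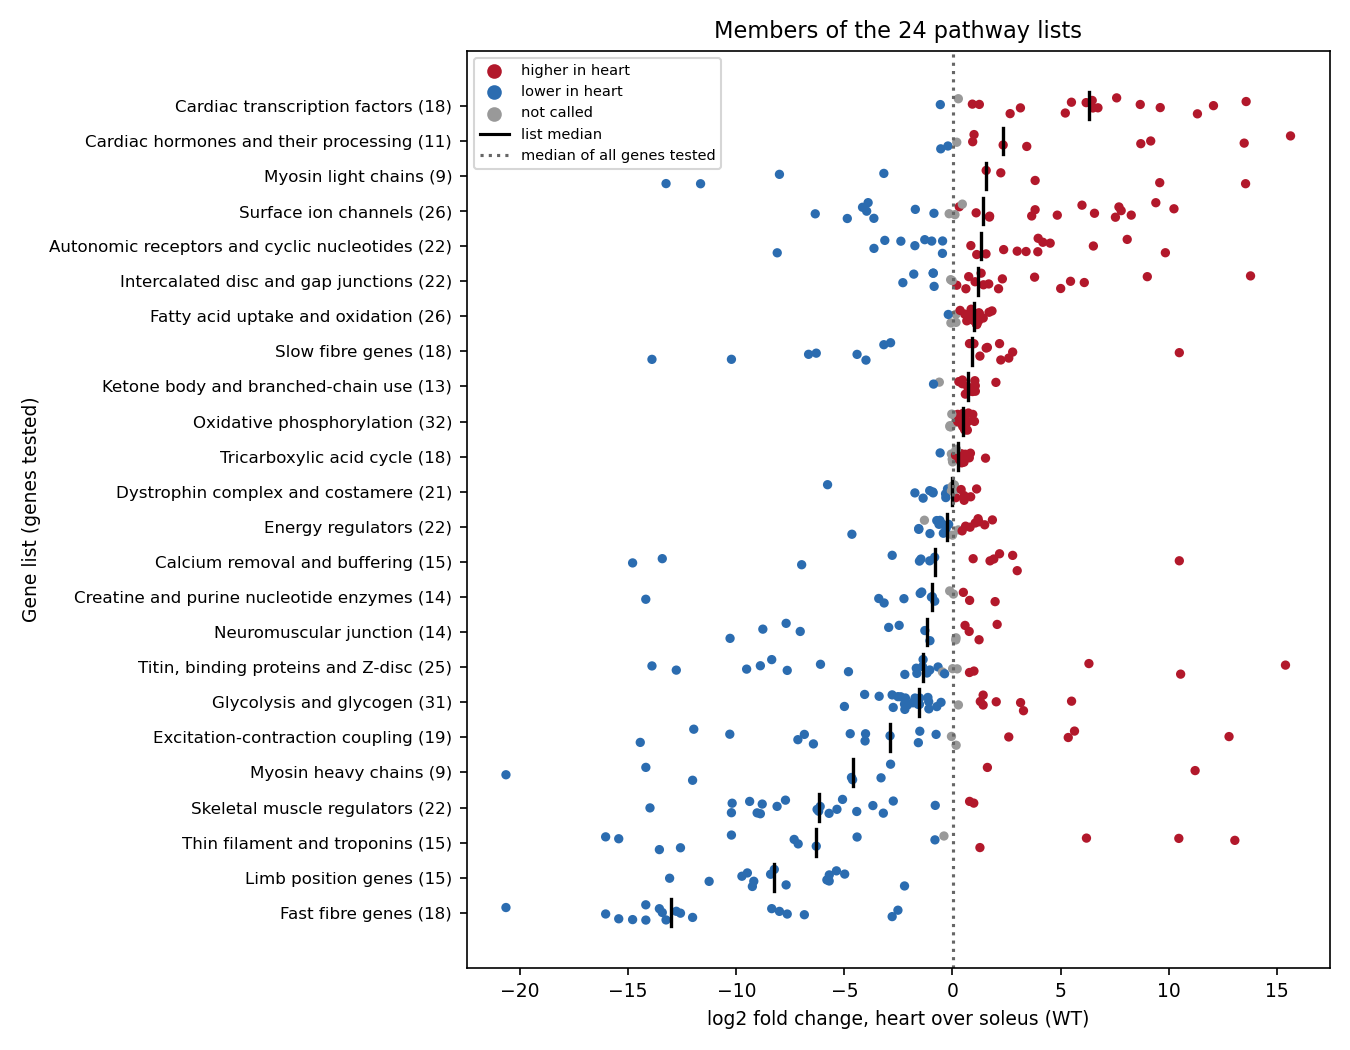
Log2 fold change, heart over soleus in WT mice, of each tested member of 24 pathway lists (1 point per gene, coloured by its call), with the list median as a bar and the median of all genes as a dotted line. The medians run from 6.33 for cardiac transcription factors to -13.0 for fast fibre genes.

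The slow fibre genes did not move as a block, unlike the fast fibre genes. All 18 fast fibre genes were lower in heart (median -13.0), with summed levels of 895 to 950 CPM in WT heart and 110535 to 179948 CPM in WT soleus. Of 18 slow fibre genes, 10 were higher and 8 lower in heart (median 0.89). The 10 higher were Pln, Atp2a2, Casq2, Myl2, Sln, Myh7b, Myl3, Tnnc1, Csrp3 and Myoz2, most of which the ventricle also uses. The 8 lower were Mybpc1, Tnni1, Car3, Tnnt1, Tpm3, Fhl1, Myl6b and Myh7. Within single mice the median over the 18 genes, on log2(CPM + 0.5), was 0.042 in mouse 3793543 and 0.948 to 1.42 in the other 4. Tnni1, slow troponin I, had 0.266, 0.132, 0.349, 0.267 and 0.172 CPM in WT heart and 372, 295, 260, 235 and 260 CPM in WT soleus.

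Levels per length in the other WT hindlimb muscles set these genes in order. Atp2a2 averaged 2503 ± 164 RPKM in WT heart, 316 ± 141 in soleus, 8.47 ± 2.08 in extensor digitorum longus, 16.1 ± 1.59 in gastrocnemius and 7.97 ± 0.214 in tibialis (SD, n = 5 each). Myl2 averaged 8115 ± 378 RPKM in WT heart, 1417 ± 285 in soleus, 70.5 ± 41.6 in extensor digitorum longus, 45.9 ± 9.32 in gastrocnemius and 12.7 ± 5.61 in tibialis. Soleus thus stood between heart and the other muscles for both genes. Lpl had 1402 ± 81.7 RPKM in WT heart, 343 ± 117 in soleus, 109 ± 28.2 in extensor digitorum longus, 74.9 ± 4.07 in gastrocnemius and 86.9 ± 9.80 in tibialis, so soleus again lay between heart and the others. Pln kept to heart, with 1765 RPKM there, 0.979 in soleus and 0.253 to 0.449 in the other 3 muscles. Car3, carbonic anhydrase 3, was low in heart at 13.6 ± 7.49 RPKM and had 1044 ± 171 in soleus, 1323 ± 474 in extensor digitorum longus, 991 ± 58.9 in gastrocnemius and 998 ± 54.9 in tibialis. The muscles were not tested against each other here.

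Markers of other cells also differed between the tissues, and their part in the results above was not tested. All 14 endothelial markers were higher in heart (median 1.30), with summed levels of 1299 to 1449 CPM in WT heart and 311 to 669 CPM in WT soleus. All 10 atrial markers were higher in heart, with sums of 432 to 819 CPM in heart and 32.1 to 41.7 CPM in soleus, where 4 of them had no read. Of 8 ventricular markers 7 were higher in heart (sums 10636 to 12029 CPM against 2048 to 3018 CPM in soleus), and Scn4b was lower (-3.63 ± 0.13). The 6 epicardial and mesothelial markers were higher in heart (18.5 to 30.6 CPM against 1.04 to 3.84 CPM). Of 10 smooth muscle and pericyte markers 9 were higher and Des was lower (2068 to 2224 CPM against 2650 to 3179 CPM).

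Of 7 tendon markers 6 were lower in heart (37.7 to 48.7 CPM against 761 to 1012 CPM in soleus). Of 8 Schwann and nerve markers tested 6 were lower (44.8 to 49.3 CPM against 90.8 to 681 CPM). Without mouse 3793543 or 3817948, 5 of 8 were lower, and without mouse 3793553, 8 of 9. Of 12 fibroblast markers 5 were higher, 4 lower and 3 not called (2413 to 2693 CPM against 2946 to 4389 CPM), shares near the 38.6% and 36.6% of all genes. The collagens Col1a1 and Col1a2 were lower in heart and Tcf21, which had no read in WT soleus, was higher. Of 7 endocardial and lymphatic markers 4 were higher and 2 lower (114 to 141 CPM against 73.2 to 138 CPM), with 1 lower without mouse 3793543, 3805657 or 3793553.

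Of 11 macrophage markers 8 were higher in heart (130 to 168 CPM against 79.9 to 143 CPM). In KO mice 2 were higher, 2 lower and 7 not called, with 0 to 3 higher and 0 to 3 lower when 1 mouse was left out (0 higher and 3 lower without mouse 3779417, 1 and 2 without mouse 3793546 or mouse 3817943, 1 and 0 without mouse 3805676, 3 and 2 without mouse 3805666). The difference between genotypes was not tested for the list. The 4 lymphocyte markers tested, of 8 listed, were higher (6.04 to 9.98 CPM against 3.11 to 6.17 CPM), and 2 of them without mouse 3805657 or without mouse 3793553. Of 9 adipocyte markers 3 were higher, 3 lower and 3 not called (609 to 716 CPM against 247 to 659 CPM), with 2, 2 and 5 without mouse 3793543 or mouse 3805657 and 3, 4 and 2 without mouse 3817948. The higher ones were Fabp4, Cidea and Ucp1, the last with 9.79, 10, 49.5, 4.37 and 4.99 CPM in WT heart. Red blood cell markers summed to 1310 to 3765 CPM in heart and 248 to 387 CPM in soleus, with 4 of 5 higher. Only 3 were higher without mouse 3793543, 3805657, 3817948 or 3805673, and 1 was lower without mouse 3805657. The near-identical haemoglobin copies Hba-a1 and Hba-a2 cannot be counted apart with certainty. The 5 listed lung epithelium markers were together at 1.17 to 69.4 CPM in heart and at 0 to 0.11 CPM in soleus. Their 1 tested member, Scgb1a1, a secretory protein of the airway, had 0.911, 4.71, 55.9, 0.64 and 1.20 CPM in the WT hearts, so that mouse 3817948 alone held most of it.

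The comparison was repeated in Cdh15 KO mice. On library totals alone 65.8% of the KO calls were higher in heart, against 50.9% with TMM. Of 13522 genes tested there, 4724 (34.9%) were higher and 4557 (33.7%) were lower in heart by the same edgeR test, and 1929 (14.3%) and 1400 (10.4%) with at least 2-fold asked. Of the 2241 genes at least 2-fold higher in WT heart, 2197 were tested in KO mice and 2129 of these (96.9%) were called higher there. Of the 1557 genes at least 2-fold lower, 1515 were tested and 1468 (96.9%) were called lower. Left without KO mouse 3805666, the share over both directions was 97.6%, against 96.9% with it. Over 13323 genes tested in both genotypes the log2 fold changes had a Pearson correlation of 0.979 across genes, which are not independent replicates. Nppa had 624, 566, 529, 466 and 331 CPM in KO heart and 0 in KO soleus, at least 15839-fold higher. Mybpc3 had 246655 reads in KO heart and 2 in KO soleus, a ratio of 111006 (95% counting interval 30730 to 916612).

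A few groups were called less often in KO mice, without a test of the difference between the genotypes on the lists. Of the 32 oxidative phosphorylation genes, 12 were higher, 4 lower and 16 not called in KO mice (median 0.18). Without KO mouse 3805666 the numbers were 19, 3 and 10 (median 0.25), and without mouse 3817943 7 were higher. Of the 18 tricarboxylic acid cycle genes 7 were higher and 2 lower (median 0.076), with 4 higher without mouse 3779417 and 3 without mouse 3817943 or mouse 3805676. Of the 18 slow fibre genes 6 were higher, 8 lower and 4 not called (median 0.14), against 8, 8 and 2 without KO mouse 3805666 (median 0.36). The median was 0.046 without mouse 3779417, 0.043 without mouse 3793546, 0.070 without mouse 3817943 and 0.15 without mouse 3805676. Within mouse 3805666 the median over the slow fibre genes was -0.746, and in the other 4 KO mice 0.117 to 0.396. All 18 fast fibre genes were lower in heart in KO mice too, also without KO mouse 3805666, and 17 were when any of the other 4 mice was left out. Within mouse 3805666 itself 1 of the 18 was higher in heart.

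**Figure D5:**
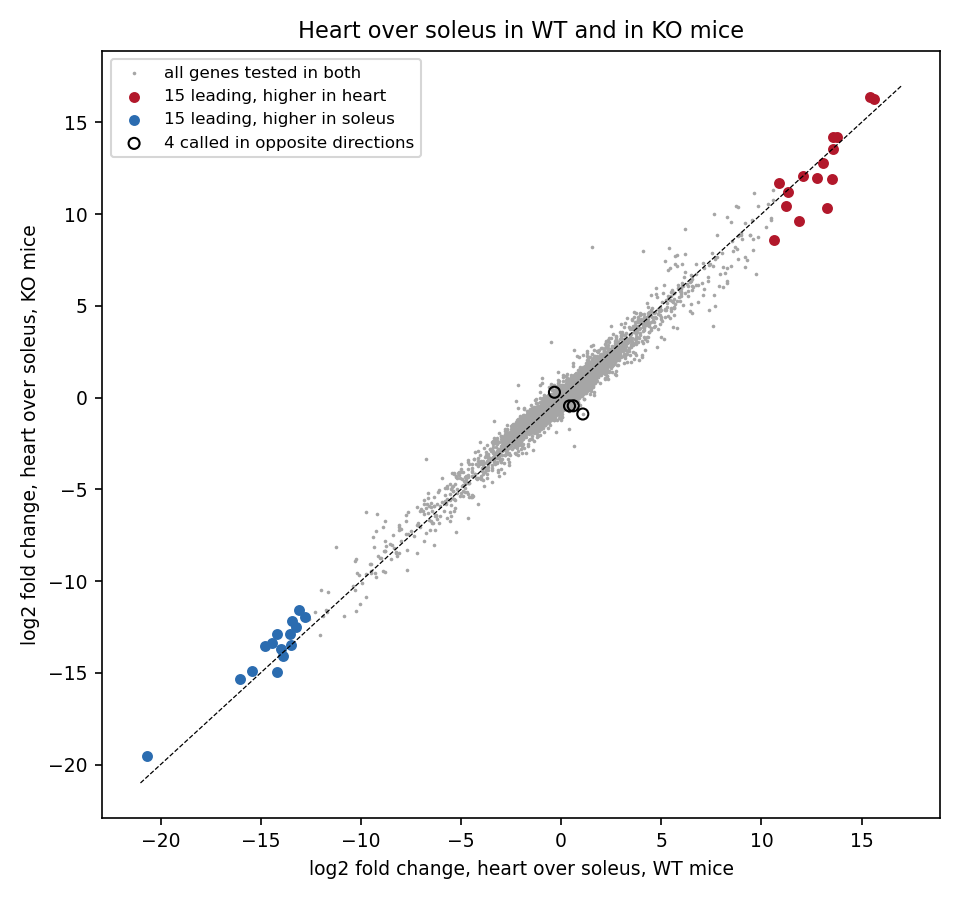
Log2 fold change, heart over soleus, in KO mice (vertical) against WT mice (horizontal), 1 point per gene tested in both, with the 30 leading genes coloured, the 4 genes called in opposite directions circled and the line of equal values dashed. The 30 leading genes lie near the line at both ends, and the circled genes lie within 2 log2 units of 0.

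The difference between the genotypes in the heart-to-soleus contrast was tested over 20 libraries. No gene of 13997 was called (0.0%) with edgeR, where 1915 had an unadjusted p under 0.05 and the smallest adjusted p was 0.274. DESeq2's Wald test called 95 genes, 30 higher and 65 lower, and had 1439 at an unadjusted p under 0.05. The genes of smallest p in edgeR were Gm12070, Egfbp2, Adgrl1, Ano8, Fzd7, Atp2a1, Tfap4, Rbm24, Postn and Trmt2b. Of these DESeq2 called Atp2a1, the fast calcium pump (KO minus WT 1.27 ± 0.26 on the log2 scale, DESeq2 adjusted p = 0.00813), and Rbm24, a splicing factor of striated muscle (0.49 ± 0.10, DESeq2 adjusted p = 0.00813). Without KO mouse 3805666 the edgeR differences of these 2 were 1.22 and 0.45, with an edgeR adjusted p of 0.413. For Gm12070, Egfbp2, Adgrl1, Ano8, Fzd7, Tfap4, Postn and Trmt2b DESeq2 gave no adjusted p, so it did not judge them. Its adjustment thus covered fewer genes than that of edgeR.

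In 4 genes, chosen after their values were seen, heart and soleus were called apart in opposite directions in the genotypes. Egfbp2, a kallikrein, had a log2 fold change of -0.89 in KO mice and 1.08 in WT mice. Postn, periostin of the extracellular matrix, had -0.45 in KO mice and 0.60 in WT mice. Adgrl1, an adhesion receptor, had 0.29 in KO mice and -0.33 in WT mice, and 4632428C04Rik -0.46 in KO mice and 0.42 in WT mice. Postn had 44.9, 32.9, 29.4, 29.3 and 30.4 CPM in KO heart and 57.4, 26.4, 40.1, 54.5 and 54.3 CPM in KO soleus (mice 3779417, 3793546, 3817943, 3805676 and 3805666), so the KO groups overlapped, and its call in KO mice had an edgeR adjusted p of 0.0476. None of the 4 passed the edgeR test of the difference between genotypes.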

How the data were processed

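Polyadenylated RNA was sequenced from a stranded mRNA kit, per the labels' protocols; the sources used here do not say whether strand was used in counting, nor which aligner and counter were run. The mm10 genome build comes from the submitters' processing notes and the deposited gene annotation. The authors deposited expected counts per gene (85.6% whole numbers) and RPKM values, both for 24453 genes. The deposited expected counts were rounded, and 22 rows of marker sequences were left out. Genes passed filterByExpr (minimum count 10, minimum total 15). Counts were scaled by TMM and fitted with edgeR 4.0.16 (R 4.3.3, robust quasi-likelihood test, mouse as a block, Benjamini-Hochberg adjustment over all genes tested, threshold 0.05), for WT, for KO and, over all 20 libraries, for KO minus WT. The block rests on the labels, which give both tissues of a mouse the same animal number. The deviations of the same mouse's libraries correlated at a mean of 0.113 in WT and 0.0838 in KO mice, with -0.0584 in KO mouse 3805666. The soleus that correlated best with a heart was that of its own mouse in 2 of 5 WT and 3 of 5 KO mice. These values are too weak to check the labels.

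Replicates are separate mice, and p-values measure the spread between them. CPM used the TMM-scaled library sizes, and folds are ratios of mean CPM, while log2 fold changes and their SE come from the fits. RPKM served for shares within 33 families and for levels between genes and across the heart and muscles. The RPKM were used as deposited, without the TMM scaling of the fits. Ratios of RPKM can therefore differ from the folds in CPM. No pair of libraries agreed within sampling noise. Where a tissue had no read of a gene, 3 reads over its 5 libraries set a bound. Where it had 1 to 3 reads, an exact 95% interval covers counting error only.

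The members, the 38 gene lists (24 of pathways, 14 of markers, 540 genes, 517 tested in WT) and the tests were chosen with earlier results of these data known. Genes were named by a rule: the 15 largest changes each way among called genes of at least 10 CPM in the higher tissue that agreed in all 5 mice, up to 4 of each pathway list each way at 5 CPM or more and up to 3 little changed, all isoform families, fibre and marker genes, the 10 smallest p of KO minus WT, and Cdh15. A few others, such as members that complete a count, were chosen after their values were seen. Alternatives were DESeq2 1.42.0, limma 3.58.1 with voom, other scalings, no filter, no block, a test against a fold of 2 and leaving out each mouse. Promoter and microRNA sequences came from RefSeq tables on GRCm38.p6. A few genes that enter the counts are not reported here by name.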

Additional observations from a re-analysis of the deposited data

Results flagged for a closer look

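Sets of 5 libraries were screened, each for a named gene or the mitochondrial or sarcomere share of counts in 1 tissue of 1 genotype. Of 162 such sets, 13 (8.02%), all of genes, held an outlying library. Its gap to its nearest neighbour was large against the whole range of the 5 (Dixon's criterion, 0.71 for 5 samples). Chance alone flags about 1 in 20 such sets.

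The soleus of KO mouse 3805666 accounted for 7 of the 13. There Myh4 was at 92.9 CPM where the other 4 KO soleus libraries had 29436 to 45234 CPM. Pygm, muscle glycogen phosphorylase, was at 1638 CPM, below 3841 to 5204 CPM. Genes of slow or cardiac muscle were high in the same library, with Tnnt2 at 12.1 CPM (others 3.80 to 4.93), Myh6 at 33.6 CPM (12.9 to 16.6), Myh7b at 50.4 CPM (20.3 to 22.8), Pln at 8.20 CPM (3.21 to 4.19) and Ldhb at 981 CPM (514 to 595). In the heart of the same mouse Atp2a1 was at 0.779 CPM, below 1.42 to 1.80 CPM in the other KO hearts.

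In the heart of KO mouse 3779417 Actc1 stood at 4431 CPM, above 3037 to 3161 CPM in the others, and Gata4 at 77.8 CPM, above 72.7 to 73.8 CPM. In WT hearts Tbx20 was at 105 CPM in mouse 3805657, above 92.8 to 93.6 CPM, and Chrm2 at 34.0 CPM in mouse 3805673, where the other 4 began at 26.1 CPM and all stayed below it. In WT soleus Tnnt2 was at 5.04 CPM in mouse 3793543, above 2.75 to 3.27 CPM.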

How the results depend on the processing

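The number of genes called in WT mice ranged from 9174 (DESeq2's Wald test) to 10827 (no filter on low counts) around 10105, and from 9544 to 9794 with 1 mouse left out. In KO mice it ranged from 8252 to 9952, and from 8478 to 9243 with 1 mouse left out. Without the replicate block, that is without pairing by mouse, 10103 genes were called in WT, 9526 in KO and 0 in KO minus WT, so the block changed no count by over 1.5 times. Asking edgeR for a difference against a fold of 2 itself left 1273 genes higher in KO heart, where 1929 passed otherwise. KO minus WT gave 1 gene with no filter, 95 with DESeq2's Wald test and 0 to 2 with 1 mouse left out (1 without WT mouse 3793543, 2 without KO mouse 3793546); the cause was not tested. The share of 2-fold WT calls repeated in KO mice was 90.1% to 97.1% over the settings and 94.7% to 97.6% with 1 mouse left out. On library totals alone the median of all genes was 0.296 in WT and 0.218 in KO mice, and list medians near 0 changed sign: the dystrophin complex in WT (-0.008, then 0.254) and in KO (-0.006, then 0.198), energy regulators in WT (-0.236, then 0.025), and in KO fibroblast (-0.081, then 0.123) and macrophage markers (-0.078, then 0.124). Calls were followed over the settings for 106 of the named genes, among them the leading genes and the family members. Of these, 98 were called in each genotype, and 7 in WT and 7 in KO changed their call under some setting. Other named list genes, such as Mlycd, Npr2 and Npr3, were not among the 106. Computed from counts in place of RPKM, 68 of 152 family shares moved by over 1 SD. In KO mice 5 of 9 adipocyte markers tested were lower without mouse 3779417, where 0 of 8 were with it. Depth limits the genes absent from a tissue to bounds.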
